A study of Mus musculus with 2 samples.

Results

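The genes of oxidative phosphorylation were examined in B cells of the mouse heart at 2 ages. The members were the 110 gene rows, of 31053 in the count tables, whose symbols name the protein-coding genes of the mitochondrial genome, the nuclear Nduf, Sdh, Uqcr, Cox4 to Cox8 and Atp5 families, and the assembly factors that share those prefixes. Of these rows, 13 were mitochondria-encoded and 97 nuclear-encoded, 105 had a UMI (a unique molecular identifier, which counts captured RNA molecules) in the droplets kept, and 101 had at least 200 UMIs over both libraries. The 110 rows carry 109 symbols, since Atp5o is on 2 rows, of which 1 had no UMI.

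B cells were sorted from hearts of wild-type C57BL6/J mice, and each age was 1 library prepared with a 3′ single-cell kit. The neonatal library came from pooled male and female mice 2 weeks old, and the adult library from male mice 8 weeks old, with 6 mice pooled for each. Both ages were digested alike and sorted on the same day. Because each age was 1 library, age, library and sex mix cannot be told apart, no test across samples was possible, and every interval below is a 95% interval that covers counting error only.

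Mitochondria make most of a resting lymphocyte's ATP by passing electrons from NADH and succinate through complexes I to IV and letting protons return through complex V, the ATP synthase. Complexes I, III, IV and V each join subunits encoded in the mitochondrial genome to subunits encoded in the nucleus, whereas complex II, succinate dehydrogenase, is wholly nuclear. Mitochondria-encoded mRNAs are cut from long polycistronic transcripts made from either strand, so their levels are set after transcription as well as by it.

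The droplets kept had at least 2000 UMIs, at most 10% mitochondrial UMIs and a UMI of Cd79a, the signaling chain of the B cell receptor. This left 2077 neonatal droplets with 16403180 UMIs and 3611 adult droplets with 34623240 UMIs, with medians of 6000 and 6131 UMIs per droplet. All 6 B cell markers examined, Cd79a, Cd79b, Ms4a1, Cd22, Pax5 and Cd74, were present in both libraries. The cardiomyocyte markers, from the cells richest in mitochondria in this organ, summed to 61 neonatal and 143 adult UMIs, or 3.72 and 4.13 CPM (UMIs scaled to a total of 1000000 per library), with all 10 markers detected in each library. Macrophage markers, mostly Lyz2, stood at 83.6 CPM among neonatal droplets and 12.97 CPM among adult ones. At least 3 UMIs of any other cell type's markers, mostly the endothelial marker Pecam1, were found in 326 neonatal and 574 adult droplets. Pecam1 supplied 2243 of 2293 neonatal and 4027 of 4071 adult UMIs of the 5 endothelial markers, which were found in 1164 and 1859 droplets. Droplets chosen in this way are therefore not called other cell types here. A barcode that had at least 500 UMIs in both libraries was carried by 61 neonatal and 45 adult droplets. The part of these droplets in the ratios below is given as the ratio without them.

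The 10% limit acts on the same 13 genes that are described here, so it fixes the upper end of their share. Of droplets with at least 2000 UMIs, 416 of 2507 neonatal (16.6%) and 505 of 4120 adult (12.3%) exceeded it. Just inside the limit, between 9% and 10%, lay 232 neonatal and 220 adult droplets, and just outside it, between 10% and 11%, lay 95 and 117. Few droplets lay near the depth limit, with 9 neonatal and 22 adult droplets fewer than 500 UMIs above it and 7 and 15 fewer than 500 below. In the kept droplets the mitochondrial share had a median of 7.41% among neonatal droplets and 6.96% among adult ones.

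**Figure D1:**
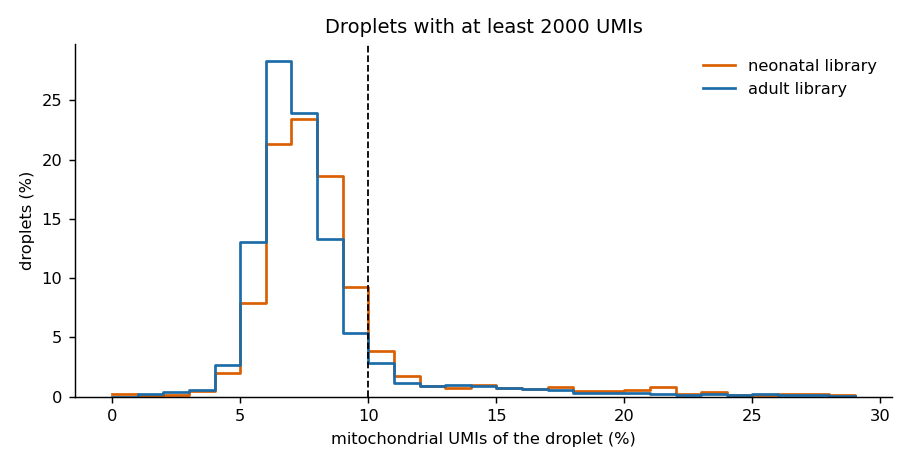
Percent of droplets (y axis) by the percent of their UMIs that came from the 13 mitochondria-encoded genes (x axis, 1% bins), for droplets with at least 2000 UMIs, with the 10% limit dashed. Both libraries peak between 6% and 8%, and the neonatal curve lies to the right of the adult one, with 232 neonatal droplets between 9% and 10%.

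The 13 mitochondria-encoded genes supplied far more UMIs than the 97 nuclear ones, and the adult library had slightly fewer of them. They took 7.37% (7.36 to 7.38) of neonatal UMIs and 6.87% (6.86 to 6.88) of adult UMIs, a log2 ratio of adult over neonatal of -0.10. The nuclear members took 1.42% (1.41 to 1.42) and 1.43% (1.42 to 1.43), a log2 ratio of 0.01. There were thus 5.19 (5.17 to 5.22) mitochondria-encoded UMIs for each nuclear-encoded UMI among neonatal droplets and 4.81 (4.79 to 4.82) among adult ones. Without the droplets that share a barcode these were 5.36 and 4.82, and the log2 ratios were -0.11 for the mitochondrial and 0.04 for the nuclear sum. Without the droplets that held other cell types' markers the ratios were -0.11 and 0.03. With no mitochondrial limit the ratio of the mitochondrial sum was -0.21. Within droplets with a Y-linked UMI and no Xist, which leaves out droplets of female mice, it was -0.11.

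These small ratios depend on what the total is taken to be. Over the 8847 genes that had 200 UMIs or more, the median ratio was itself -0.14, and scaling by the median of gene ratios shifted every gene by 0.15, which placed the mitochondrial sum at 0.05 and the nuclear sum at 0.16. Cytoplasmic ribosomal protein genes, a large part of each library at 27.0% of neonatal and 31.01% of adult UMIs, stood at 0.20 as a sum.

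Droplets too shallow to be cells gave another background. In 45000 near-empty droplets of each library, with means of 55.9 neonatal and 92.0 adult UMIs, mitochondria-encoded genes took 4.33% of neonatal and 7.43% of adult UMIs, and nuclear members 1.60% and 1.54%. The mitochondrial share of free RNA was thus below that of the kept droplets in the neonatal library and above it in the adult library. Subtracting the free RNA from the kept droplets left the ratio of the mitochondrial sum at -0.11 and that of the nuclear sum at 0.01.

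By complex, the mitochondria-encoded transcripts of complexes IV, III and V took smaller shares of UMIs in the adult library, with the lowest ratio in complex IV. Scaling by the median of gene ratios would add the same 0.15 to each ratio of this paragraph, so the signs depend on the total. The 3 mitochondria-encoded subunits of complex IV, cytochrome c oxidase, took 3.87% of neonatal and 3.45% of adult UMIs (log2 ratio -0.17), and cytochrome b of complex III took 0.576% and 0.535% (-0.11). The 7 mitochondria-encoded subunits of complex I, the NADH dehydrogenase, took 1.431% and 1.434% (0.0034), and the 2 of the ATP synthase 1.491% and 1.453% (-0.038). The ratio of the last pair was 0.09 and 0.01 in the droplets with under 4000 and with 4000 to under 8000 UMIs. The nuclear members of the same complexes had log2 ratios of 0.01 for complex I, 0.06 for complex III, 0.02 for complex IV and -0.02 for complex V, and complex II had 0.04. These nuclear ratios are of summed UMIs. Gene by gene, 4 of the 8 nuclear members of complex III and 6 of the 12 tested of complex IV were above 0 and as many below, with medians of -0.08 and -0.02, and the nuclear sum of complex IV was -0.03 in droplets with under 4000 UMIs and -0.06 in those with 16000 or more.

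Single mitochondria-encoded genes differed more than their sum. Mt-Nd2, a membrane subunit of complex I, stood at 3805 CPM among neonatal droplets and 4674 CPM among adult ones, a log2 ratio of 0.30 (0.28 to 0.31). Mt-Nd3, another membrane subunit of complex I, stood at 2008 and 1343 CPM (-0.58, -0.60 to -0.56). Mt-Co1, the catalytic subunit of complex IV, stood at 13578 and 10865 CPM (-0.3216, just short of the threshold of 0.3219 used below). Complex I therefore held the highest and the lowest of the 13 ratios.

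Among the others, mt-Atp8 of the ATP synthase stood at 290 neonatal and 228 adult CPM (-0.34). The remaining 9 genes had log2 ratios between -0.12 (mt-Nd4l) and 0.05 (mt-Nd1), with mt-Cytb at -0.11, mt-Co3 at -0.10, mt-Nd4 at -0.09, mt-Co2 at -0.08, mt-Atp6 at -0.03, mt-Nd5 at -0.01 and mt-Nd6 at 0.03. Mt-Co3, mt-Atp6, mt-Co1 and mt-Co2 were the most abundant, and mt-Nd6, which is transcribed from the other strand, the least, at 72.0 and 73.5 CPM. A 3′ kit does not count along the whole length of a transcript, so these levels were not divided by gene length. Whether the UMIs of mt-Atp8, mt-Nd4l and mt-Nd6, which overlap neighboring genes, came from 3′ ends of their own was not tested.

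**Figure D2:**
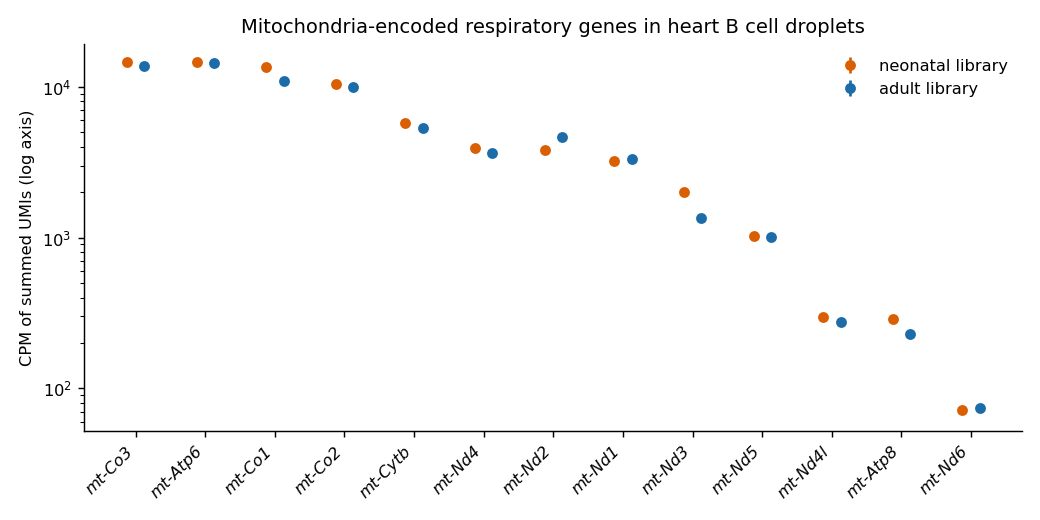
CPM of summed UMIs (log y axis) of the 13 mitochondria-encoded genes in the neonatal and adult libraries; bars, where larger than the points, are 95% counting intervals. mt-Nd2 is the gene with the adult point clearly above the neonatal one (4674 against 3805 CPM), and mt-Nd3, mt-Atp8 and mt-Co1 lie lower in the adult library.

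The composition of the mitochondrial UMIs removes the total of either library from the comparison. As a share of the 13 genes, mt-Nd2 made up 5.16% of neonatal and 6.80% of adult mitochondrial UMIs (log2 ratio 0.40, 0.38 to 0.41), mt-Co1 18.4% and 15.8% (-0.22), and mt-Nd3 2.73% and 1.96% (-0.48). In 4 classes of droplet depth, with limits at 2000, 4000, 8000 and 16000 UMIs, the mt-Nd2 ratio was 0.41, 0.42, 0.45 and 0.42, that of mt-Co1 -0.27, -0.25, -0.26 and -0.21, and that of mt-Nd3 -0.57, -0.50, -0.45 and -0.47. Within the neonatal library, 1279 droplets were called male and 323 female by Y-linked and Xist UMIs. Male over female, the log2 ratios were 0.05 for mt-Nd2, 0.0044 for mt-Co1 and -0.0071 for mt-Nd3.

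Free RNA shared part of this pattern. In near-empty droplets the adult over neonatal ratio within mitochondrial UMIs was 0.50 for mt-Nd2 and -0.14 for mt-Co1, and -0.02 for mt-Nd3. In each library, near-empty droplets also held relatively more mt-Nd2 than the kept droplets (log2 ratio 0.54 neonatal and 0.64 adult) and less mt-Co1 (-0.60 and -0.52). Whether the composition of free RNA has a part in the composition of the kept droplets beyond the subtraction above was not tested.

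The last 60 bases of these 3 genes, read from the mitochondrial chromosome of GRCm38, are shown because a 3′ kit counts the ends of transcripts. The longest run of A in each, or the first of those where runs tie, is in capitals. None of the 3 ends holds a run longer than 5. Over the whole genes the longest runs were 8 in mt-Nd2, 7 in mt-Co1 and 5 in mt-Nd3.
mt-Nd2 (chrM:4892-4951, + strand): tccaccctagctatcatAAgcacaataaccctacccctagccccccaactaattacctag
mt-Co1 (chrM:6813-6872, + strand): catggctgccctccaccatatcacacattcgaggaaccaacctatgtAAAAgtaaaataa
mt-Nd3 (chrM:9747-9806, + strand): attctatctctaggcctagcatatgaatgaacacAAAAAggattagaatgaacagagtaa

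These sequences are not unique in the genome. Of the 90-base windows in the last 500 bases, 94.9% of those of mt-Co1 and 97.7% of those of mt-Nd3 had an identical copy in an annotated pseudogene, against 9.73% for mt-Nd2, and mt-Nd4l, mt-Co2, mt-Atp6 and mt-Co3 had copies for over 98%. The pseudogenes are not rows of the count tables. Neighboring mitochondrial genes also overlap, mt-Atp8 and mt-Atp6 by 43 bases, mt-Nd4l and mt-Nd4 by 7, and mt-Nd5 and mt-Nd6, on opposite strands, by 14, so the counts of those pairs are less certain than the others.

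Nuclear members were close to equal at the 2 ages. Of 88 with at least 200 UMIs, 41 had a log2 ratio above 0 and 47 below, with a median of -0.01, where all 8847 genes had 2953 above and 5894 below and a median of -0.14. A log2 ratio of 0.3219 or more in size was counted as a difference, with no test. By that measure 7 of the 101 members tested were higher and 7 lower in the adult library, against 11.5% of all genes higher and 28.0% lower. The 7 higher members were nuclear, and of the 7 lower, 5 were nuclear and the others were mt-Nd3 and mt-Atp8. The quartiles of the members were -0.12 and 0.12, and those of all genes -0.35 and 0.09. After scaling by the median of gene ratios, 20 members were higher and 2 lower, so the split between directions depends on the total.

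The nuclear subunits as a group and the 12 assembly factors among the members differed in their ratios. The 75 rows of structural subunits took 1.354% of neonatal and 1.351% of adult UMIs, a log2 ratio of -0.0029 (-0.0102 to 0.0044), and 2 of the 74 tested were higher and 4 lower. The 12 assembly factors, which help to build complexes I and II and do not remain in them, took 0.0235% and 0.0285%, a log2 ratio of 0.28 (0.22 to 0.33), and 5 of them were higher and 1 lower. Their median was 0.27. In the droplets with under 4000 UMIs their sum had a ratio of -0.10 (-0.38 to 0.19), and in the other classes it lay between 0.24 and 0.36. Over all genes 11.5% were higher and 28.0% lower by the same threshold. Further genes of the respiratory chain and its assembly, outside the members and described below, had a summed ratio of -0.14 (-0.16 to -0.12).

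Sdhaf4, an assembly factor that binds the flavoprotein subunit of complex II, had the highest ratio of all members. It stood at 17.9 CPM (294 UMIs) among neonatal droplets and 35.1 CPM (1214 UMIs) among adult ones, a log2 ratio of 0.97 (0.78 to 1.16), and it stayed between 0.87 and 1.80 under 22 other settings. Its UMIs came from 251 neonatal and 885 adult droplets, with at most 5 and 6 in a single droplet. Another pair of factors of complex II was also higher in the adult library, Sdhaf1, which aids the iron-sulfur subunit, at 22.5 and 32.8 CPM (0.54), and Sdhaf3 at 8.23 and 11.7 CPM (0.51), whereas Sdhaf2 stood at 44.3 and 42.5 CPM (-0.06). With a mitochondrial limit of 5% the ratios of Sdhaf1 and Sdhaf3 turned to -0.10 and -0.55. That limit kept few droplets. Between 4% and 5% lay 1.99% of neonatal and 2.67% of adult droplets with at least 2000 UMIs, and each lower 1% bin held fewer. The 4 subunits of the enzyme did not follow. Sdha, the flavoprotein, stood at 82.9 and 86.0 CPM (0.05), Sdhb, the iron-sulfur protein, at 84.6 and 75.1 CPM (-0.17), and the membrane anchors Sdhc at 24.4 and 23.5 CPM (-0.06) and Sdhd at 64.1 and 51.3 CPM (-0.3217, just short of the threshold).

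Among the 8 assembly factors of complex I, Ndufaf8 stood at 46.4 neonatal and 66.8 adult CPM (0.53, 0.41 to 0.65) and Ndufaf2 at 12.5 and 16.8 CPM (0.43, 0.19 to 0.66). Ndufaf8 turned to -0.06 in the shallowest droplets, with under 4000 UMIs (124 neonatal droplets), and Ndufaf2 to -0.07 in the deepest, with 16000 or more (134 neonatal droplets). Ndufaf4 went the other way, at 33.8 and 25.6 CPM (-0.40, -0.56 to -0.25). Of the subunits of complex I, Ndufb9 was higher in the adult library, at 127 and 164 CPM (0.37, 0.30 to 0.44), but stood at -0.05 with a mitochondrial limit of 5%. Ndufa1 and Ndufa3 were lower in the adult library, at 139 and 105 CPM (-0.41) and 156 and 123 CPM (-0.35). The 7 nuclear core subunits, which carry the flavin and the iron-sulfur clusters, lay between -0.11 (Ndufs8) and 0.06 (Ndufs7). The most abundant nuclear subunits were Ndufa13 at 248 and 283 CPM (0.19), Ndufb11 at 220 and 222 CPM (0.01) and Ndufa6 at 226 and 202 CPM (-0.16).

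Complex III held the lowest ratio among the nuclear members. Uqcrc1, a core protein of the complex, stood at 92.4 neonatal and 63.6 adult CPM (-0.54, -0.63 to -0.44), and the small subunit Uqcr10 at 166 and 123 CPM (-0.42). Uqcrb, another small subunit, stood at 132 and 167 CPM (0.34, 0.27 to 0.41), and Uqcrh, the hinge protein, at 484 and 591 CPM (0.29). Uqcrc2 and the Rieske iron-sulfur protein Uqcrfs1 had ratios of -0.16 and -0.18. The 8 nuclear members of 1 complex thus spanned from -0.54 to 0.34. Cyc1, a subunit of this complex that the symbols of the members do not cover, had -0.32.

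No tested nuclear member of complexes IV or V reached the threshold. This does not hold for all subunits, since Usmg5 of complex V, which the symbols of the members do not cover, had -0.73 (-0.80 to -0.65). In complex IV, Ndufa4, which now counts as a subunit of cytochrome c oxidase, came nearest, at 241 and 300 CPM (0.31), and Cox7a2l stood at 402 and 481 CPM (0.26). Cox5b at 251 and 211 CPM (-0.25) and Cox7c at 497 and 423 CPM (-0.23) were the lowest, and Cox4i1 and Cox8a, among the most abundant, had 0.13 and 0.04. In complex V, the catalytic beta subunit Atp5b stood at 402 and 326 CPM (-0.30) and the alpha subunit Atp5a1 at 335 and 312 CPM (-0.10). Atp5e, the epsilon subunit and the most abundant nuclear member in the neonatal library, stood at 592 CPM in both. The 3 genes of the c ring, which encode the same mature protein, differed in sign, with Atp5g2 at 0.16, Atp5g1 at 0.09 and Atp5g3 at -0.22.

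**Figure D3:**
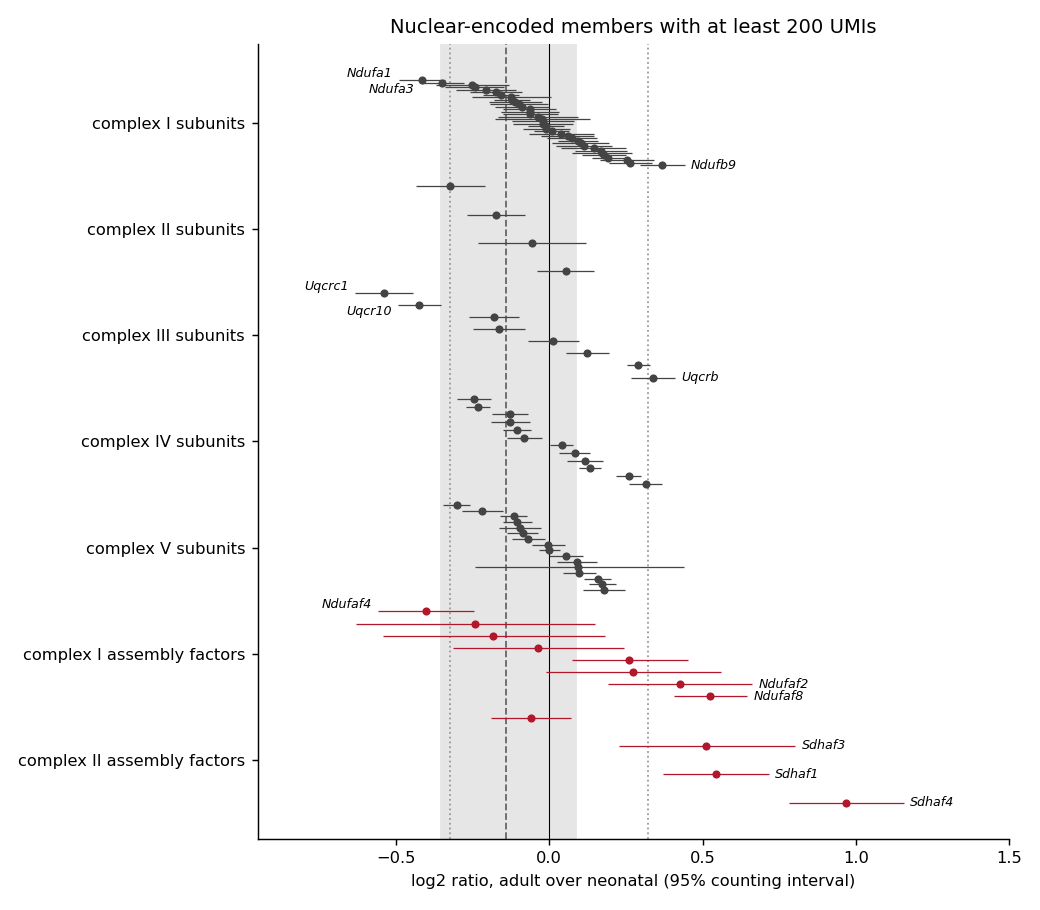
Log2 ratio of adult over neonatal CPM (x axis) of each nuclear member with at least 200 UMIs, by complex and role (y axis; Cox7a2l and Atp5s are drawn with the subunits), with 95% counting intervals; the grey band and dashed line are the quartiles (-0.35 and 0.09) and the median (-0.14) of all genes, and dotted lines mark the threshold of 0.3219. Subunits gather around 0, and 5 of 12 assembly factors (red) lie beyond it on the adult side.

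The isoforms known from muscle, lung or testis had few UMIs or none. Cox4i2, Cox7b2, Cox8c and Ndufa4l2 had no UMI in either library, which allows up to 0.183 neonatal and 0.0866 adult CPM (3 UMIs of each total). Cox7a1 and Cox6a2, the forms of heart and skeletal muscle, had 17 neonatal and 20 adult UMIs and 8 and 13 UMIs, and Cox8b had 1 and 6. Cox6b2, the form known from testis, had 77 neonatal UMIs in 69 droplets and 34 adult UMIs in 33 droplets, 4.69 and 0.98 CPM, a log2 ratio of -2.26 (-2.88 to -1.66). In near-empty droplets Cox6b2 stood at 4.77 neonatal and 1.93 adult CPM.

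The promoters of the nuclear members were read from RefSeq (GRCm38.p6), from 250 bases before to 50 after the start, and 80 members matched by symbol or synonym. GCGCANGCG, letters bound by NRF1, was found on either strand in 24 of the 80 (30.0%), against 7.03% of all 27025 genes and 17.7% of the 6971 with at least 200 UMIs here. AAGATGGC, read by YY1, was found in 13.75% of members and 6.498% of those genes, and CCGGAAG, an ETS sequence, in 26.25% and 24.3%. Members with GCGCANGCG had a median adult over neonatal log2 ratio of 0.03, and those without of -0.02. The 120 bases before the start are shown for the member with the highest ratio, for the flavoprotein it serves, and for the nuclear member with the lowest ratio, with GCGCANGCG matches in capitals.
Sdhaf4 (chr1:24005641-24005760, - strand): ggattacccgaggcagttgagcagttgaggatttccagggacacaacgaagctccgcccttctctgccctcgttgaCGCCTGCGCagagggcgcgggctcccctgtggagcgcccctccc
Sdha (chr13:74350241-74350360, - strand): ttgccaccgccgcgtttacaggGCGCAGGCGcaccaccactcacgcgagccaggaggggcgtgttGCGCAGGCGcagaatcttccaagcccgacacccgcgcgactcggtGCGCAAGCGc
Uqcrc1 (chr9:108936528-108936647, + strand): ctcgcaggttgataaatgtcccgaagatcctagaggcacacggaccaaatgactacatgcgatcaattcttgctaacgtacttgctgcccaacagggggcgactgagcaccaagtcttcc

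Other genes of the same organelle are given beside all genes, of which 5894 of 8847 had ratios below 0 and 28.0% were lower by the threshold. All 9 tested regulators of the nuclear genes were below 0 and 3 passed the threshold, Gabpa, an ETS factor, at 29.8 neonatal and 22.2 adult CPM (-0.42), Yy1 (-0.37) and Pprc1 (-0.37). Of 14 genes of the citric acid cycle, 12 were below 0 and 3 were lower, Idh2 (-0.71), fumarase Fh1 (-0.50) and Dlst (-0.32). Of 20 genes of mitochondrial gene expression, 14 were below 0 and 5 were lower, led by the helicase Supv3l1 (-0.82), while Tfam, which packages and transcribes mitochondrial DNA, had 0.30. Among 14 carriers and channels 9 were below 0 and 5 were lower, led by Ucp2 at 469 and 295 CPM (-0.67), and 1 was higher, Slc25a11 (0.34). Of 37 further genes of the respiratory chain and its assembly that the symbols of the members do not cover, 21 were below 0 and 6 were lower, led by Usmg5 (-0.73), Coa7 and Sco2 (both -0.69), and 1 was higher, Nubpl (0.36, -0.03 to 0.75). The medians of the 5 lists were -0.26, -0.22, -0.19, -0.14 and -0.07, where all genes had -0.14.

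The deepest droplets had the lowest mitochondrial and the highest nuclear share in both libraries. From the shallowest to the deepest class, mitochondria-encoded genes took 7.38%, 7.43%, 7.54% and 7.02% of neonatal UMIs and 7.25%, 7.02%, 6.94% and 6.67% of adult UMIs. Nuclear members took 1.37%, 1.38%, 1.40% and 1.54% of neonatal and 1.35%, 1.40%, 1.43% and 1.46% of adult UMIs. For each nuclear-encoded UMI there were 5.39, 5.39, 5.37 and 4.57 mitochondria-encoded ones over the neonatal classes, and 5.38, 5.02, 4.85 and 4.57 over the adult ones. Among neonatal droplets only the deepest class thus stood apart, whereas the adult values fell from class to class. Over all classes the neonatal and adult values were 5.19 and 4.81, and 5.36 and 4.82 without the droplets that share a barcode. Without the 5% of droplets with most UMIs they were 5.38 and 4.89. The classes were not taken again without the droplets that share a barcode, so their part in the deepest neonatal class was not tested. The adult library had relatively more droplets at both ends of depth. At 16000 UMIs or more lay 490 of 3611 adult against 134 of 2077 neonatal droplets. Under 4000 UMIs lay 728 adult against 124 neonatal droplets. Within the 4 classes the adult over neonatal ratio of the mitochondrial sum was -0.03, -0.08, -0.12 and -0.08, and that of the nuclear sum -0.02, 0.02, 0.03 and -0.08.

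**Figure D4:**
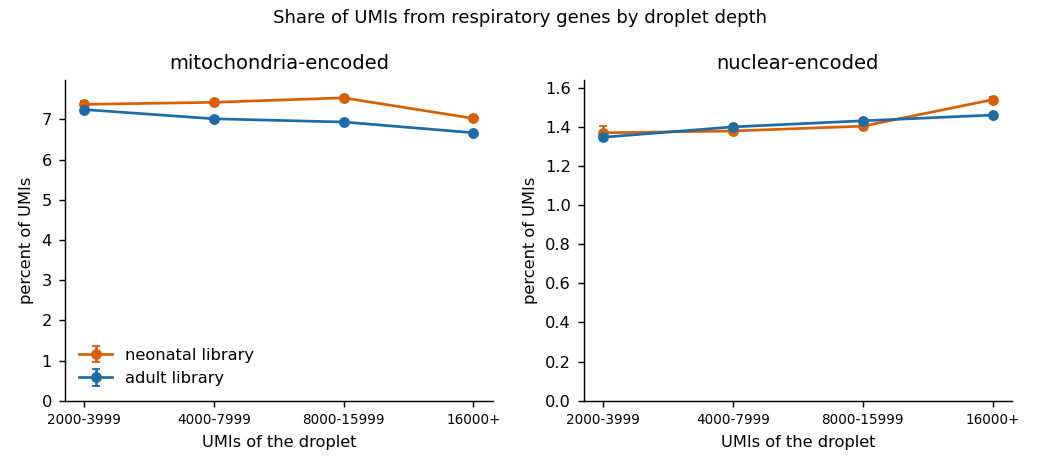
Percent of UMIs (y axis, from 0) taken by the mitochondria-encoded (left) and nuclear-encoded (right) members in 4 classes of droplet depth (x axis, UMIs per droplet), with 95% counting intervals. The mitochondrial share is lowest, and the nuclear share highest, in the deepest class of both libraries.

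For droplets of 8000 UMIs or more over those with under 4000, the log2 ratio of the mitochondrial sum was -0.01 (-0.03 to 0.0041) among neonatal droplets and -0.10 (-0.10 to -0.09) among adult ones, and that of the nuclear sum 0.09 (0.06 to 0.13) and 0.10 (0.09 to 0.12). The mitochondrial values depend on the limit. With a limit of 20% they were -0.43 and -0.31, with none -0.90 and -0.56, and with 5% they were -0.08 and 0.25, a change of sign in the adult library. The nuclear ratio was above 0 at each limit, between 0.09 and 0.50 among neonatal droplets and 0.10 and 0.31 among adult ones.

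Gene by gene, 45 nuclear members were compared. Their UMIs over the shallow and deep classes predicted at least 50 in the shallow class of each library. In the neonatal library 5 were higher in deep droplets by the same threshold and 0 lower, where 17.8% of 1095 genes were higher and 24.1% lower. In the adult library 7 were higher and 1 lower, where 16.0% were higher and 16.3% lower. None of the 12 mitochondria-encoded genes tested reached the threshold in either library. Uqcr11, a small subunit of complex III, had the highest value, at 71.1, 92.6, 104 and 155 CPM over the neonatal classes (0.83, 0.32 to 1.40) and 82.6, 100.3, 109 and 120 CPM over the adult ones (0.49, 0.28 to 0.69). Atp5e stood at 417, 567, 591 and 671 neonatal CPM (0.58) and 507, 552, 612 and 617 adult CPM (0.28). Ndufa6 was the adult member lower in deep droplets, at 237, 234, 208 and 174 CPM (-0.33). The assembly factors with large depth ratios rested on few shallow droplets, as Sdhaf4 did on 4 neonatal UMIs.

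In droplets with cycle genes, nuclear-encoded members took a larger and mitochondria-encoded ones a smaller share of UMIs. Each droplet was thinned to 2000 UMIs, and cycling droplets were those with at least 3 UMIs of 14 cycle genes, such as Mki67, Top2a and Pcna. The 20 neonatal droplets had 5.60% (5.38 to 5.83) mitochondria-encoded UMIs against 7.42% in the others, and 2.03% (1.90 to 2.18) nuclear-encoded UMIs against 1.39%. The 58 adult droplets had 6.06% (5.93 to 6.20) against 7.02%, and 1.82% (1.74 to 1.89) against 1.40%. Mitochondrial ribosomal protein genes, whose products translate the 13 mitochondrial mRNAs, took 0.618% against 0.377% among neonatal droplets and 0.515% against 0.359% among adult ones. The cycling droplets were deep before thinning, with medians of 28008 and 20354 UMIs, and the part of depth in these values was not tested.

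**Figure D5:**
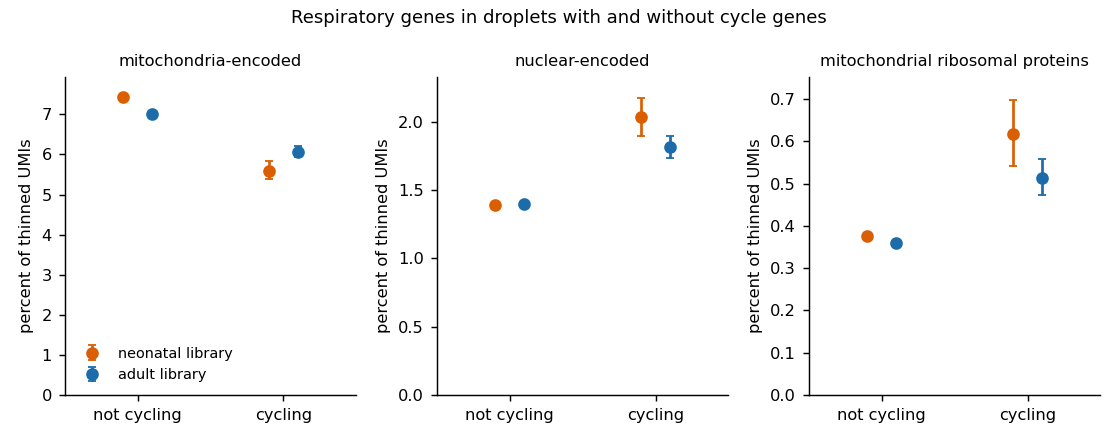
Percent of thinned UMIs (y axes, from 0) from mitochondria-encoded members, nuclear-encoded members and mitochondrial ribosomal protein genes, in droplets without and with at least 3 UMIs of the cycle genes, with 95% counting intervals. In both libraries the cycling droplets (20 neonatal, 58 adult) lie lower for the mitochondria-encoded and higher for the other groups.

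Single members were compared where they had at least 20 UMIs in the cycling droplets. All 10 such mitochondria-encoded genes among neonatal droplets and all 11 among adult ones were lower in cycling droplets, 10 and 7 of them with an interval below 0. All 11 such nuclear members in the neonatal library and 38 of 44 in the adult library were higher, 7 and 18 with an interval above 0. The same counts over all genes were not taken, so these have no background beside them. Over all kept droplets, thinned, the variance of the mitochondrial sum was 5.27 (neonatal) and 5.48 (adult) times the binomial variance. The intervals leave this spread out. The minimum was set on the cycling droplets themselves and favored nuclear members that were high there. The nuclear counts therefore do not show how many nuclear members were higher in cycling droplets. Large nuclear values were favored in the same way, so those named next are no ranking of all nuclear members. Among the members compared, the largest adult values were those of Atp5g1 of the c ring, at 379 CPM in cycling and 170 CPM in other droplets (1.16, 0.69 to 1.60), and Cox5b, at 448 and 206 CPM (1.12). Cox7a2l, at 284 and 486 CPM (-0.77, -1.32 to -0.28), was the 1 adult nuclear member with an interval below 0. These values rest on few droplets. With another random thinning 26 neonatal and 56 adult droplets were chosen, with 6.49% and 5.89% mitochondrial and 1.88% and 1.86% nuclear UMIs, and without thinning, which chose 248 and 466 droplets, the mitochondrial log2 ratios were -0.09 and -0.08 and the nuclear ones 0.15 and 0.10.

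The spread between droplets was taken beyond counting error, as a coefficient of variation after the binomial variance of the thinned UMIs was subtracted. It was 16.3% for the mitochondrial and 15.9% for the nuclear sum among neonatal droplets, and 17.3% and 13.7% among adult ones. The sum of cytoplasmic ribosomal protein genes had 21.8% and 16.5%. The 10% limit removes droplets at the upper end of the mitochondrial share, and its part in these values was not tested. Over droplets, the mitochondria-encoded subunits of complexes I and IV had a Pearson correlation of 0.40 over 2077 neonatal and 0.44 over 3611 adult droplets, and those of complexes IV and V of 0.48 and 0.52. The mitochondrial and nuclear sums had -0.03 and -0.13. The droplets of each correlation share a library, and the thinned total of 2000 UMIs ties any pair of sums slightly against each other.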

How the data were processed

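Heart B cells of both ages were profiled as 1 library each. The authors aligned reads to mm10 and deposited the raw counts of UMIs for each gene and barcode from Cell Ranger (version 3.0.2 per the file headers), for every barcode and without normalization. Everything after the counts was computed here with Python 3.11.15, numpy 2.4.6, scipy 1.17.1, pandas 2.3.3 and matplotlib 3.10.9.

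UMIs were summed over the droplets kept and divided by their total (CPM). Ratios carry exact conditional binomial intervals and shares exact Clopper-Pearson intervals. Totals of 16403180 and 34623240 UMIs set the precision. With 1 library per age there was no test and no p-value. Genes were counted as differing at a log2 ratio of at least 0.3219 in size with at least 200 UMIs over both libraries. For ratios by depth, a gene's UMIs over the shallow and deep classes had to predict at least 50 in the shallow class of each library. This minimum was set after the values had been seen. Near-empty droplets were ranks 45000 to 90000 by UMIs. Doublets were excluded at the sort per the labels and were not called in the droplets, and leaving out the 5% of droplets with most UMIs was an alternative. The calculations were tested on simulated data. Gene positions are from GENCODE M21.

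Named members were all 13 mitochondria-encoded genes, the 3 most abundant nuclear members of each complex, the 8 that differed most in each direction, the 5 that differed most by depth in each direction, the tissue isoforms, and, of the other lists, the 3 that differed most in each direction. Others were named for their role or value. The members and lists were chosen with earlier results of these data known. The antibody rows held 3 and 2 UMIs and were not used. A further B cell marker is not reported here.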

Additional observations from a re-analysis of the deposited data

How the results depend on the processing

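The depth of the libraries limits single members below about 200 UMIs, and the intervals do not cover differences between mice or preparations. No paired analysis was possible because each age was 1 library with no replicate number. The log2 ratio of the mitochondria-encoded sum (-0.10) was below 0 in all alternatives but the median-of-ratios scaling (0.050). It was -0.054 with a mitochondrial limit of 5%, -0.14 with 20% and -0.21 with none, -0.026, -0.082, -0.12 and -0.075 in the 4 depth classes, -0.076 with equal weight per class, -0.081 thinned to 2000 UMIs or as a mean over droplets, -0.095 without the Cd79a rule, and -0.11 with at least 4000 UMIs, with scaling by UMIs outside the 13 genes, in male droplets, after free RNA subtraction, and without the 5% of droplets with most UMIs, other cell types' markers or shared barcodes. The ratio of the nuclear-encoded sum (0.01) had either sign: 0.16 with median-of-ratios scaling, 0.0021 with scaling by UMIs outside the 13 genes, 0.019 and 0.030 with limits of 20% and none, -0.024, 0.022, 0.028 and -0.076 by depth class, -0.013 with equal weights, -0.0079 in male droplets, and 0.031, 0.029 and 0.039 without the deepest droplets, other markers or shared barcodes.

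Mitochondrial per nuclear UMIs were 2.58 neonatal and 2.47 adult at a 5% limit, 5.61 and 5.04 at 20%, 6.14 and 5.19 with none, and 5.38 and 4.89 without the deepest 5%. They were 4.77 in the adult library with at least 4000 UMIs, and 5.29 and 5.36 in the neonatal library without other markers or shared barcodes. Members counted as higher numbered 2 at a 5% limit, 20 with median-of-ratios scaling and 1 at a fold of 1.5. Those lower numbered 2 with that scaling, 17 in droplets of at least 16000 UMIs, 12 with equal weights and 0 at a fold of 1.5.

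The deep over shallow ratio of the mitochondrial sum was -0.080, -0.43 and -0.90 in the neonatal and 0.25, -0.31 and -0.56 in the adult library at limits of 5%, 20% and none, and -0.045 and -0.11 with classes set by UMIs outside the members. That of the nuclear sum was 0.50, 0.30 and 0.50, and 0.31, 0.16 and 0.21, at those limits. In cycling droplets, the mitochondrial ratio of -0.41 neonatal and -0.21 adult was -0.19 and -0.25 with another thinning and -0.090 and -0.084 unthinned, and the nuclear ratio of 0.55 and 0.38 was 0.44 with another thinning in the neonatal library and 0.15 and 0.10 unthinned. Single members changed sign in 5 cases among those past the threshold, Sdhaf3 (-0.55), Sdhaf1 (-0.10) and Ndufb9 (-0.050) at a 5% limit, Ndufaf8 (-0.061) in the shallowest and Ndufaf2 (-0.068) in the deepest class. A limit of 5% kept few droplets, the shallowest and deepest neonatal classes held 124 and 134, and no interval was taken for these values. The cause was not tested.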

Other observations

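The other B cell states given here differed less than cycling droplets did from those not cycling. After thinning, droplets not cycling had 7.42% neonatal and 7.02% adult mitochondria-encoded UMIs, and 1.39% and 1.40% nuclear-encoded UMIs. After thinning to 2000 UMIs, the 725 neonatal and 461 adult droplets with Vpreb3, a gene of immature B cells, and neither Cr2 nor Fcer2a had 7.29% and 7.03% mitochondria-encoded UMIs and 1.41% nuclear-encoded UMIs in both libraries. The 602 and 1860 droplets with Cr2 or Fcer2a, which encode CD21 and CD23 of mature B cells, had 7.39% and 6.98% mitochondria-encoded and 1.34% and 1.38% nuclear-encoded UMIs. The 120 adult droplets with at least 3 UMIs of 8 interferon-induced genes had 6.67% (6.57 to 6.77) mitochondria-encoded UMIs and 1.44% (1.39 to 1.49) nuclear ones. The list of 8 genes known from B1 cells was almost wholly Plac8 (89.2% of its neonatal and 85.0% of its adult UMIs), so droplets chosen by it are not called B1 cells here.

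Droplets over the 10% limit had 17.4% mitochondria-encoded UMIs among neonatal droplets and 15.2% among adult ones, and 1.08% and 1.10% nuclear-encoded UMIs, below the 1.42% and 1.43% of the kept droplets. Their mitochondrial UMIs held relatively less mt-Co1 than those of the kept droplets (log2 ratio -0.28 neonatal and -0.23 adult). Among mitochondrial UMIs, mt-Nd3 was lower in the adult library in these droplets as well (-0.56), and mt-Nd2 was higher (0.23).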
